A study of Mus musculus with 8 samples.

Results

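The genes described here are the VEGF ligands *Vegfa* and *Vegfb* and 8 genes of blood vessel endothelium, *Kdr*, *Flt1*, *Tek*, *Pecam1*, *Cdh5*, *Vwf*, *Nos3* and *Egfl7*. They were taken by gene name from a table of 32390 rows of counts in gastrocnemius muscle, and each of the 10 names stood on a single row. The comparison was between 4 *Nox4* fl/fl control mice and 4 MckCre:*Nox4* fl/fl mice, here called NOX4-deficient. All were males aged 21 months on a C57BL/6 background and a standard chow, and both genotypes carried the floxed *Nox4* alleles, so that they differed by the Cre transgene. The muscle creatine kinase promoter drives Cre mainly in skeletal muscle and less in heart, so that the endothelium itself was not the intended site of deletion, and no control carrying Cre without the floxed alleles was analysed here.

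VEGF-A is secreted by muscle fibers and other cells and binds the receptor tyrosine kinases VEGFR2 (*Kdr*) and VEGFR1 (*Flt1*) on nearby endothelial cells. VEGFR2 carries most of the signal for endothelial growth and permeability, whereas VEGFR1 binds ligand more tightly and signals more weakly, and VEGF-B binds VEGFR1 but not VEGFR2. In skeletal muscle VEGF-A from the fibers is known to maintain the capillaries that run along them. Hypoxia-inducible factors and the coactivator PGC-1alpha are known activators of *Vegfa* transcription.

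The 250 bases before the annotated start of each ligand and VEGF receptor gene are shown because the ligand and receptor mRNAs were compared pair by pair, and because hypoxia-inducible factors read short motifs in such windows. They come from RefSeq (GRCm38.p6), which is an earlier build than the GRCm39 of the deposited counts, and run 5′ to 3′ on the gene's strand. Capitals mark the core motifs ACGTG and GCGTG of hypoxia-inducible factors on either strand. The first motif overlaps the E-box CACGTG, which holds it on both strands. The *Vegfa* window lies at chr17:46032378-46032627, that of *Vegfb* at chr19:6987652-6987901, that of *Kdr* at chr5:75978456-75978705 and that of *Flt1* at chr5:147726012-147726261, all on the minus strand.
Vegfa: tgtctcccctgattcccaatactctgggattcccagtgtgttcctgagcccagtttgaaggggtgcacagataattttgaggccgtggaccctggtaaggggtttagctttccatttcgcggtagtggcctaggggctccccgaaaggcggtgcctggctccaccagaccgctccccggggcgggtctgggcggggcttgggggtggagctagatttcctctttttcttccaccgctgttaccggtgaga
Vegfb: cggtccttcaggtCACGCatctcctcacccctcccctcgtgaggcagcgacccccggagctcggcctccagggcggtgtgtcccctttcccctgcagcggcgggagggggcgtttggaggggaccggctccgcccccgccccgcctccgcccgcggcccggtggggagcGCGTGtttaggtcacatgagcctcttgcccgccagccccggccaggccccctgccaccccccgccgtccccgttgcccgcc
Kdr: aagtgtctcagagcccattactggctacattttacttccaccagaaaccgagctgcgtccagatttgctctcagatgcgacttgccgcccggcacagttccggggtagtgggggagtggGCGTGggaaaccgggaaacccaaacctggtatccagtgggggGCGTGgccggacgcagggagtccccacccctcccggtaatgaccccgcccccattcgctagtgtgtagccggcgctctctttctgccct
Flt1: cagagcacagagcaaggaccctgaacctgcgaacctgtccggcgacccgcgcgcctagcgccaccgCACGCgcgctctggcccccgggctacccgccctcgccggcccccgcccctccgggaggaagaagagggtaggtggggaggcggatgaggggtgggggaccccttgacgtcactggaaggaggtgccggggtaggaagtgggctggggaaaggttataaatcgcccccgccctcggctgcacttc
No match lay in this *Vegfa* window, 2 lay in that of *Vegfb*, 2 in that of *Kdr* and 1 in that of *Flt1*. A second annotated start of *Vegfa*, inside the gene, has a window at chr17:46025164-46025413 with 2 matches. Of 32851 such windows over all genes, 38.6% held at least 1 match. *Tek* and *Egfl7* also had windows, with no match, and 6 of the 10 genes were found in the table of windows. These are matches of letters, and binding was not measured.

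The 8 libraries held between 16350548 and 19804661 counts on genes, and a batch was not among the labels used here. Levels are given below as CPM, the counts of a gene scaled to library size with edgeR's TMM factors, and errors are SDs over 4 libraries. *Nox4*, the targeted gene, was at 5.09, 2.47, 1.87 and 3.64 CPM in control libraries 1 to 4 and at 1.74, 2.17, 2.21 and 2.17 CPM in NOX4-deficient libraries 1 to 4. The log2 fold change, NOX4-deficient over control, was -0.65 (standard error 0.29, edgeR adjusted p = 0.207), and the groups overlapped, so that *Nox4* mRNA was lower on average without passing the test. Without control replicate 1 it was -0.36. Which exons are floxed is not given in the sources used here, so that a count over the whole gene may not read the deletion directly. The test was edgeR's quasi-likelihood F test across the 12725 rows that passed the filter on low counts, with Benjamini-Hochberg adjustment over all of them. Called genes are those past both thresholds of the study's methods, 0.05 for the adjusted p and 0.5 for the size of the log2 fold change in either direction.

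Of the 10 genes, *Vwf* was the only one called, and it was higher in NOX4-deficient muscle. The background was 6.16% of all rows tested called in either direction and 2.68% called higher, so that 1 gene of 10 is a share close to what the table as a whole showed. All 10 passed the filter on low counts, with 97 to 3669 counts per library. Both ligands, the 3 receptors, *Pecam1*, *Cdh5*, *Nos3* and *Egfl7* were not called. The log2 fold change was below 0 for 4 genes and above 0 for 6, with a median of 0.13 over the 10 genes, 0.16 over the 8 endothelial genes and 0.01 over all rows tested. The groups of libraries did not overlap for 1 of the 10 genes, which was higher, against 16.2% of all rows, 7.2% higher and 8.97% lower. An unadjusted p-value under 0.05 was found for 2 of the 10, *Vwf* and *Egfl7*, against 23.2% of all rows. Under the same thresholds DESeq2 called 1 of the 10 genes and 7.9% of its rows, and pydeseq2 1 of the 10 and 7.5% of its rows, *Vwf* in both. With no minimum fold change edgeR also called *Vwf* alone among the 10, against 7.75% of all rows.

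**Figure D1:**
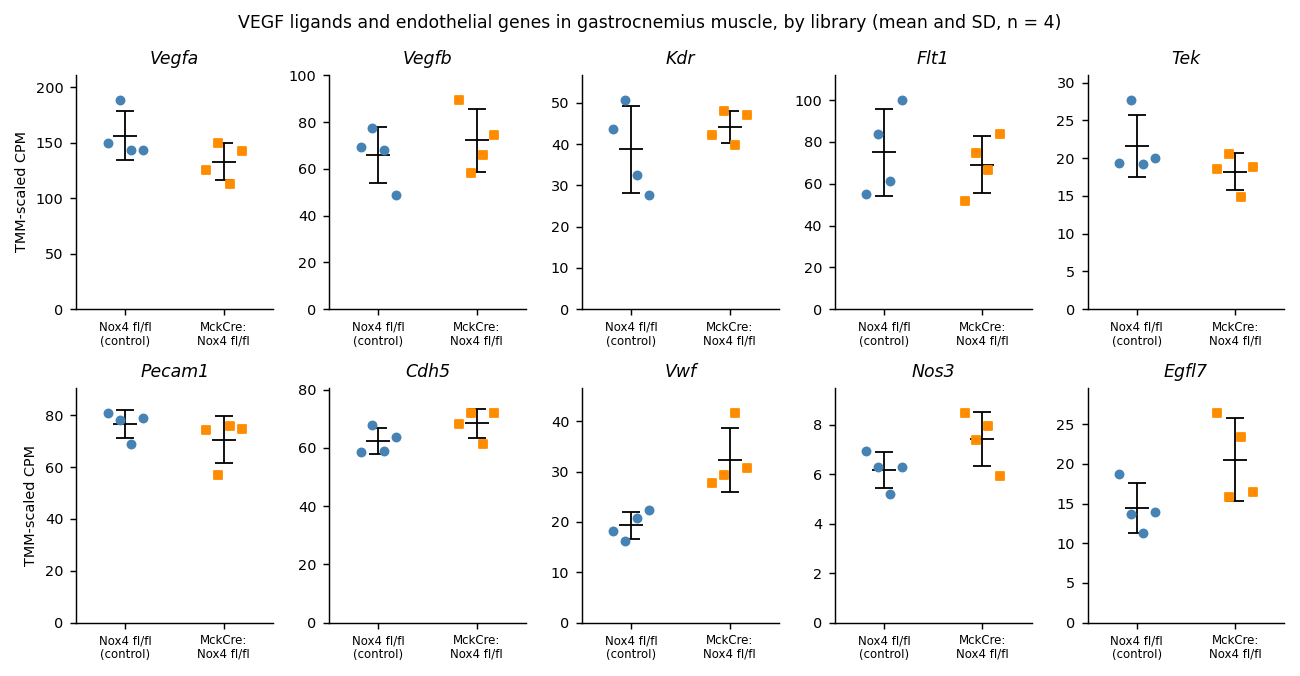
Each panel plots the TMM-scaled CPM of 1 gene in the 4 control libraries (blue circles, replicates 1 to 4 from left to right) and the 4 NOX4-deficient libraries (orange squares), with the mean and SD in black. The *Vwf* panel is the only one in which the groups separate, from 16.2 to 22.3 CPM in control and from 27.7 to 41.6 CPM in NOX4-deficient muscle.

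*Vegfa*, the main ligand of VEGFR2, was at 150.0, 189, 143 and 143 CPM in control libraries 1 to 4 and at 126, 150.0, 113 and 143 CPM in NOX4-deficient libraries 1 to 4. Control replicate 2 was the highest library and NOX4-deficient replicate 3 the lowest, and NOX4-deficient replicate 2 lay within the control range, while replicate 4 lay just under the lowest control library and replicates 1 and 3 further below. The means were 156 ± 21.8 and 133 ± 16.6 CPM (SD, n = 4), and the fitted difference was -0.24 on the log2 scale (standard error 0.12, 95% interval from -0.50 to 0.03, edgeR adjusted p = 0.28). Without control replicate 2 the log2 fold change was -0.13. A lowering of *Vegfa* mRNA by up to 0.50 on the log2 scale is thus inside the interval, and no larger rise than 0.03.

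*Vegfb*, the ligand of VEGFR1, was at 69.4, 77.3, 68.2 and 48.9 CPM in control and at 89.6, 58.4, 66.0 and 74.6 CPM in NOX4-deficient libraries. The highest library was NOX4-deficient replicate 1 and the lowest was control replicate 4, and the groups overlapped between them. Between genotypes the log2 fold change was 0.13 (standard error 0.16, 95% interval from -0.21 to 0.47, edgeR adjusted p = 0.672). *Vegfa* and *Vegfb* thus had log2 fold changes of opposite sign, and neither was told apart from 0.

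*Kdr*, which encodes VEGFR2, was at 43.7, 50.7, 32.6 and 27.7 CPM in control libraries 1 to 4 and at 42.2, 47.9, 39.7 and 47.0 CPM in NOX4-deficient libraries 1 to 4. The control libraries were spread more widely, with a coefficient of variation of 27.0% against 8.85%, and their range held all of the NOX4-deficient values. For *Kdr* the log2 fold change was 0.19 (standard error 0.17, 95% interval from -0.17 to 0.56, edgeR adjusted p = 0.538), and it was 0.06 without control replicate 4 and 0.35 without control replicate 2.

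*Flt1*, which encodes VEGFR1, was at 55.0, 83.6, 61.2 and 100.2 CPM in control and at 51.8, 74.5, 66.7 and 83.6 CPM in NOX4-deficient libraries. Control replicate 4 was the highest library and NOX4-deficient replicate 1 the lowest, and the control libraries alone spread over most of that range. The log2 fold change was -0.12 (standard error 0.19, 95% interval from -0.54 to 0.31, edgeR adjusted p = 0.769), and its sign turned to 0.05 without control replicate 4 and to 0.01 without NOX4-deficient replicate 1. *Flt1* also yields a soluble decoy receptor that a count per gene does not separate from the membrane form.

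*Tek* encodes TIE2, the endothelial receptor of the angiopoietins. It was at 19.4, 27.7, 19.3 and 20.1 CPM in control and at 18.6, 20.6, 14.8 and 18.8 CPM in NOX4-deficient libraries. Control replicate 2 stood above the other 7 libraries, as it did for *Vegfa*, and NOX4-deficient replicate 3 was the lowest for both genes. The log2 fold change of *Tek* was -0.25 (standard error 0.15, 95% interval from -0.57 to 0.08, edgeR adjusted p = 0.349), and -0.11 without control replicate 2.

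**Figure D2:**
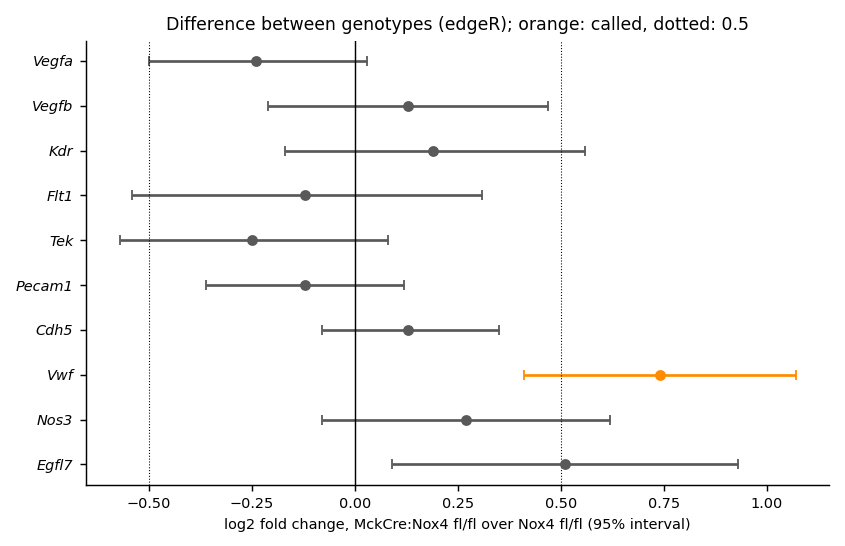
Log2 fold change of each gene (NOX4-deficient over control, edgeR) with its 95% interval, and dotted lines at the minimum size of 0.5 for a call. The interval of *Vwf* runs from 0.41 to 1.07, that of *Egfl7* from 0.09 to 0.93, and the other 8 intervals include 0.

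The ligand mRNA was then set against the receptor mRNA within each library, as the log2 ratio of CPM + 0.5, for the 3 ligand and receptor pairs. For *Vegfa* over *Kdr*, the log2 ratio was 1.77, 1.89, 2.12 and 2.35 in control libraries 1 to 4 and 1.56, 1.63, 1.50 and 1.59 in NOX4-deficient libraries 1 to 4. All 4 NOX4-deficient libraries lay below all 4 control libraries, and they lay closer together. The mean log2 ratio was 2.03 ± 0.26 in control and 1.57 ± 0.06 in NOX4-deficient muscle (SD, n = 4), and on a linear scale the ratio was 4.18 ± 0.776 and 3.00 ± 0.116. The difference of -0.46 had p = 0.0286 in an exact two-sided permutation test, which is the smallest p that 4 libraries against 4 allow, and an adjusted p of 0.0857 over the 3 pairs, so that it did not pass the correction. Neither *Vegfa* (log2 fold change -0.24) nor *Kdr* (0.19) was called on its own, and the ratio joins a lower ligand mean with a higher receptor mean.

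The *Vegfa* to *Flt1* log2 ratio was 1.44, 1.17, 1.22 and 0.52 in control and 1.27, 1.00, 0.76 and 0.77 in NOX4-deficient libraries, with a difference of -0.14 (exact two-sided permutation test, p = 0.629). The *Vegfb* to *Flt1* log2 ratio was 0.33, -0.11, 0.16 and -1.03 in control and 0.78, -0.35, -0.01 and -0.16 in NOX4-deficient libraries, with a difference of 0.23 (exact two-sided permutation test, p = 0.6, adjusted p = 0.629). Control replicate 4, which had the most *Flt1* of all libraries, was the lowest of its group in both ratios. The groups overlapped in both.

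**Figure D3:**
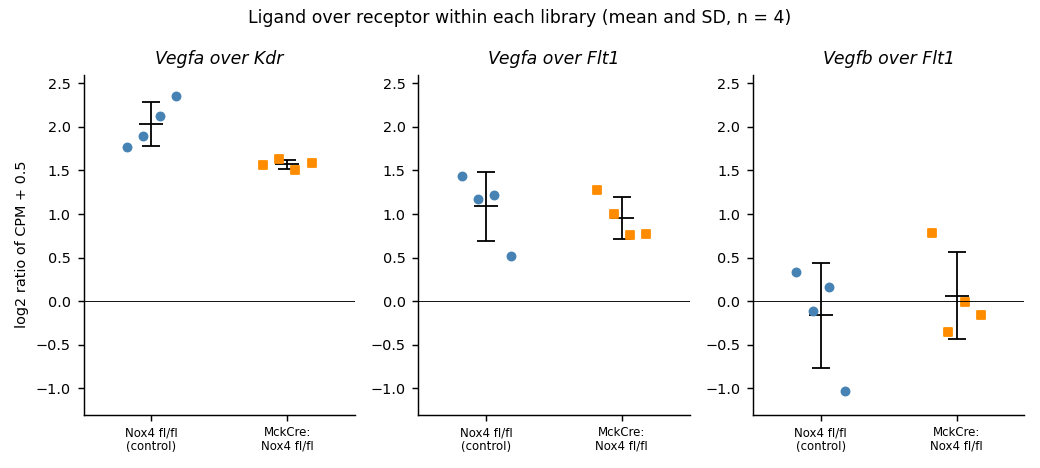
Log2 ratio of ligand to receptor CPM (after adding 0.5 to each) in each library, with the mean and SD of 4 libraries. The *Vegfa* to *Kdr* ratio ran from 1.77 to 2.35 in control and from 1.50 to 1.63 in NOX4-deficient libraries, and the other pairs overlapped.

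The junction and adhesion genes gave the narrowest intervals among the endothelial genes. *Pecam1*, which encodes the adhesion molecule CD31 on all endothelial cells, was at 80.9, 78.3, 68.9 and 78.8 CPM in control and at 74.5, 57.0, 75.8 and 74.9 CPM in NOX4-deficient libraries. NOX4-deficient replicate 2 lay below all other libraries, and the other 3 NOX4-deficient libraries lay inside the control range. The log2 fold change of *Pecam1* was -0.12 (standard error 0.11, 95% interval from -0.36 to 0.12, edgeR adjusted p = 0.565), and -0.03 without NOX4-deficient replicate 2. *Cdh5*, which encodes the VE-cadherin of endothelial junctions, was at 58.5, 68.0, 58.9 and 63.8 CPM in control and at 68.2, 72.0, 61.5 and 72.0 CPM in NOX4-deficient libraries. Its log2 fold change was 0.13 (standard error 0.10, 95% interval from -0.08 to 0.35, edgeR adjusted p = 0.448). The signs of *Pecam1* and *Cdh5* were opposite, and both intervals lay inside the minimum size of 0.5 for a call. In bulk tissue, fewer cells of a type and less RNA per cell cannot be told apart, so these values do not measure the number of endothelial cells or capillaries.

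*Vwf*, which encodes the von Willebrand factor that endothelial cells store and release to bind platelets, was at 18.2, 16.2, 20.7 and 22.3 CPM in control libraries 1 to 4 and at 27.7, 29.2, 41.6 and 30.8 CPM in NOX4-deficient libraries 1 to 4. All 4 NOX4-deficient libraries lay above all 4 control libraries, and replicate 3 was the highest of them. The means were 19.3 ± 2.70 and 32.3 ± 6.33 CPM (SD, n = 4), a rise of 1.67-fold (0.74 on the log2 scale, standard error 0.15, 95% interval from 0.41 to 1.07, edgeR adjusted p = 0.0129). Without NOX4-deficient replicate 3 the log2 fold change was 0.61 (edgeR adjusted p = 0.0273).

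Markers of blood were higher in the same group, and the share called higher over all rows tested was 2.68%. Of the 5 blood markers listed, 3 were in the table and tested, and 2 were called higher: *Hba-a1* was at 14.1 ± 1.11 CPM in control muscle and 33.5 ± 12.8 in NOX4-deficient muscle (SD, n = 4, edgeR adjusted p = 0.00978), and *Hbb-bs* at 35.4 ± 2.01 and 70.9 ± 26.0 (edgeR adjusted p = 0.0153). The summed level of the blood markers ran from 47.6 to 52.7 CPM in control and from 72.3 to 159 CPM in NOX4-deficient libraries, and none of them was at 0. *Alas2*, an enzyme of heme synthesis in red cell precursors, was at 1.48 ± 0.567 and 2.98 ± 1.32 CPM and was not called. *Hba-a1* was highest in NOX4-deficient replicates 1 (48.1 CPM) and 3 (40.1 CPM), while *Vwf* was highest in replicate 3 and lowest of its group in replicate 1. Platelets and megakaryocytes also carry *Vwf* mRNA. Of 7 platelet markers, chosen after the values were seen, 3 were tested and 0 were called by edgeR, DESeq2 or pydeseq2 (0 at an unadjusted p under 0.05), with a summed level of 4.73 to 7.87 CPM in control and 5.10 to 7.40 CPM in NOX4-deficient libraries. The platelet genes *Gp1bb* and *Gp9* had 0 or 1 count in every library, and *Pf4* was at 2.33 ± 1.60 CPM in control muscle and 1.87 ± 0.875 CPM in NOX4-deficient muscle. The part of blood in the *Vwf* result was not tested.

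*Egfl7*, a secreted protein of endothelium, was at 18.8, 13.6, 11.3 and 13.9 CPM in control and at 26.4, 15.8, 23.4 and 16.5 CPM in NOX4-deficient libraries. NOX4-deficient replicates 1 and 3 lay above all control libraries and replicates 2 and 4 lay below control replicate 1. The blood marker *Hba-a1* was also highest in NOX4-deficient replicates 1 and 3, at 48.1, 24.8, 40.1 and 20.8 CPM in replicates 1 to 4. A link between the 2 genes was not tested. Mean levels were 14.4 ± 3.12 and 20.5 ± 5.22 CPM (SD, n = 4), a difference of 0.51 on the log2 scale (standard error 0.19, 95% interval from 0.09 to 0.93, edgeR unadjusted p = 0.0214, adjusted p = 0.136), which was not called. Fitted with odd against even replicate numbers as a second term, the difference was 0.48 (edgeR adjusted p = 0.0703). On GENCODE M21, 11.2% of the exon bases of *Egfl7* overlap other genes, and the libraries are unstranded, so that reads of both strands are counted together. The overlapping gene *Agpat2* on the other strand had 3.43 ± 1.21 CPM in control muscle and 3.56 ± 0.439 CPM in NOX4-deficient muscle, lower than *Egfl7* in both.

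An intron of *Egfl7* holds the endothelial microRNA miR-126, which is known to sustain VEGF signaling in endothelial cells. Its main mature form lies at chr2:26591402-26591423 on the plus strand (GRCm38.p6, RefSeq) and is printed with the seed, bases 2 to 8, in capitals. Mature microRNAs have no poly(A) tail and were not measured in these libraries, so *Egfl7* mRNA is the readout of this locus here.
miR-126a-3p: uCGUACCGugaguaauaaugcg

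*Nos3* encodes the nitric oxide synthase of endothelium and had the lowest counts of the 10 genes. It was at 6.95, 6.28, 5.19 and 6.29 CPM in control and at 8.48, 7.38, 7.94 and 5.92 CPM in NOX4-deficient libraries. In NOX4-deficient muscle 3 libraries lay above all control libraries and replicate 4 lay within them. For *Nos3* the log2 fold change was 0.27 (standard error 0.16, 95% interval from -0.08 to 0.62, edgeR adjusted p = 0.352). *Atg9b* and *Gm15587* on the other strand overlap *Nos3*, and 32.3% of the exon bases of *Nos3* are shared with other genes. *Atg9b* had 0 to 4 counts per library and *Gm15587* 0 to 8. How reads in the shared bases were counted is not given in the sources used here.

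Levels were compared between genes per kb of exon on GENCODE M21. The length was the union of all annotated exons of a gene, such as 16064 bases for *Vwf* and 4132 for *Nos3*. The order of the genes depends on this choice of length. The ligands stood highest, with *Vegfb* at 41.1 ± 7.52 CPM per kb and *Vegfa* at 36.5 ± 5.09 CPM per kb in control muscle (SD, n = 4), and they did not differ beyond their spread. *Cdh5* (14.8 ± 1.07 CPM per kb) and *Pecam1* (12.3 ± 0.86) followed, and differed by more than their SDs. *Flt1* (5.55 ± 1.54), *Tek* (4.59 ± 0.871), *Kdr* (4.28 ± 1.16) and *Egfl7* (4.03 ± 0.870) had overlapping ranges of mean and SD in control muscle. *Nos3* (1.50 ± 0.177) and *Vwf* (1.20 ± 0.168) were lowest. In NOX4-deficient muscle *Vegfb* was at 45.0 ± 8.34 and *Vegfa* at 31.0 ± 3.88 CPM per kb, and their ranges of mean and SD did not overlap. There *Vwf* was at 2.01 ± 0.394 CPM per kb and *Nos3* at 1.80 ± 0.267, so that their order changed while their spreads overlapped. *Egfl7* at 5.73 ± 1.46 stood beside *Flt1* at 5.12 ± 0.998. Each ligand mRNA was thus above each VEGF receptor mRNA per length in whole muscle, where reads of all cell types are pooled.

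**Figure D4:**
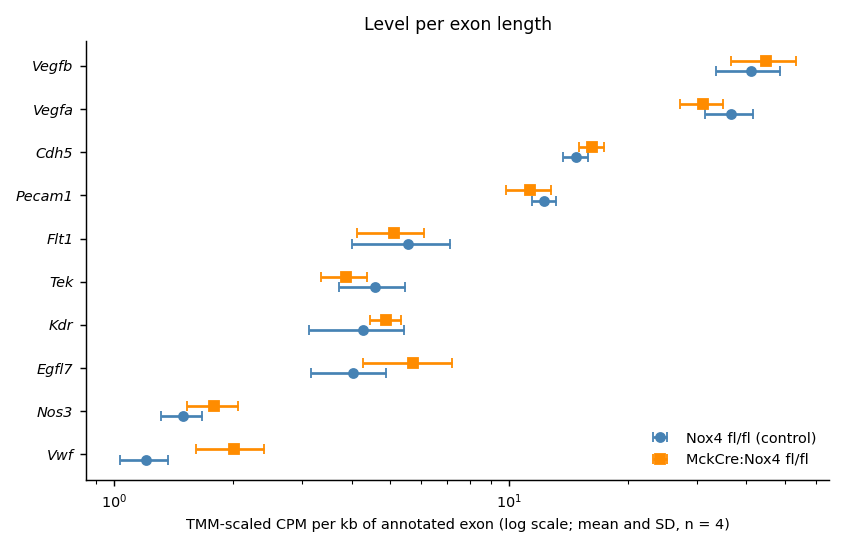
Mean TMM-scaled CPM per kb of annotated exon, on a log axis, with the SD of 4 libraries, for control (blue) and NOX4-deficient muscle (orange). The genes fall from *Vegfb* and *Vegfa* above 30 CPM per kb to *Nos3* and *Vwf* near 1 to 2 CPM per kb.

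The summed CPM of the 8 endothelial genes was 301, 344, 278 and 333 in control libraries 1 to 4 and 318, 324, 331 and 349 in NOX4-deficient libraries 1 to 4. Without *Vwf* it was 283, 328, 257 and 311 in control and 290.1, 295, 289.9 and 319 in NOX4-deficient libraries. The groups overlapped in both sums. The 8 genes did not move as a block from library to library. Over their 28 pairs, the correlation of deviations from the genotype means had a median Pearson r of -0.04, from -0.81 for *Tek* and *Vwf* to 0.91 for *Tek* and *Cdh5*, and 13 pairs were above 0. These correlations are over 8 libraries that share depth and scaling, and are given as a description.

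The rest of the VEGF family was not called by edgeR either. Of 6 other ligands, receptors and coreceptors (*Pgf*, *Vegfc*, *Vegfd*, *Flt4*, *Nrp1* and *Nrp2*), 0 were called, with 1 at an unadjusted p under 0.05 and a median log2 fold change of 0.00. *Vegfd*, a ligand of lymphatic vessels, had the smallest p (-1.03, standard error 0.39, edgeR adjusted p = 0.14), and control replicate 4 with 15.4 CPM lay far above the other libraries, at 3.07 to 6.65 CPM. It was -0.44 on the log2 scale without that library. It was called by DESeq2 (adjusted p = 0.0467) and by pydeseq2 (adjusted p = 0.0484). *Flt4*, the receptor of VEGF-C and VEGF-D, was at 5.52 ± 0.288 CPM in control muscle and 5.10 ± 1.34 CPM in NOX4-deficient muscle. Of the angiopoietin and TIE genes, 4 of 5 were tested and 0 were called by edgeR, DESeq2 or pydeseq2 (0 at an unadjusted p under 0.05), with all 4 log2 fold changes above 0, among them *Tie1* (0.21, edgeR adjusted p = 0.304) and *Angpt1*, the agonist of TIE2 (0.29, edgeR adjusted p = 0.333).

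A list of 30 further endothelial genes, which shares *Tie1* and *Ptprb* with the TIE genes, held 3 genes called lower in NOX4-deficient muscle and 0 called higher by edgeR, where 3.48% of all rows tested were called lower, and the median log2 fold change was 0.13, with 13 genes below 0 and 17 above. *Ece1*, the endothelin-converting enzyme, fell from 116 ± 10.1 to 72.8 ± 4.35 CPM (SD, n = 4, log2 fold change -0.67, edgeR adjusted p = 0.00202). *Thbd*, the anticoagulant thrombomodulin, fell from 26.3 ± 4.05 to 14.4 ± 2.92 CPM (-0.87, edgeR adjusted p = 0.0071). *Adgrl4*, an adhesion receptor of endothelium, fell from 37.3 ± 5.09 to 24.2 ± 3.08 CPM (-0.62, edgeR adjusted p = 0.0147). The called genes of endothelium therefore lay on both sides of 0, with *Vwf* higher and these 3 lower. Groups did not overlap for 4 of the 30, all lower, against 8.97% of all rows. They were the 3 called genes and *S1pr1*, which had -0.43 (edgeR adjusted p = 0.0316), under the minimum size. *Emcn*, *Esam* and *Erg*, which mark endothelial cells widely, had log2 fold changes of -0.03, -0.00 and 0.12. Others of the list ran both ways without being called, such as *Eng* (-0.25), *Robo4* (0.27) and *Icam2* (0.59). *Ece1* is also expressed outside endothelium. DESeq2 and pydeseq2 each called 5 genes of this list, the same 3 with *Cyyr1* (log2 fold change -0.68, edgeR adjusted p = 0.0701) and the endothelial transcription factor *Sox7*, which was higher (0.90, edgeR adjusted p = 0.0536).

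Of 9 tested genes of muscle capillaries, 1 was called, and it was lower, where 3.48% of all rows tested were called lower. The log2 fold change was below 0 for 6 of them and above 0 for 3, with a median of -0.15. *Cd36*, the fatty acid carrier shared by capillaries and muscle fibers, was at 441 ± 69.8 CPM in control muscle and 268 ± 60.2 CPM in NOX4-deficient muscle (log2 fold change -0.72, edgeR adjusted p = 0.0189), a call that was lost without control replicate 2 (adjusted p = 0.0574), NOX4-deficient replicate 1 (0.0509) or NOX4-deficient replicate 3 (0.0574). *Lpl*, the most abundant gene of this list, had -0.46 (edgeR adjusted p = 0.318), *Aqp7* had -0.32 and *Meox2* had 0.32. *Gpihbp1*, which anchors lipoprotein lipase in capillaries, had -0.08 and *Aqp1*, the water channel of capillaries, 0.12. None of these was called. The glucose carrier *Slc2a1* had -0.56 (edgeR adjusted p = 0.222).

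Among 13 tested genes of Notch signaling and of arterial or venous identity, 1 was called, and it was higher. The share called higher over all rows tested was 2.68%. An unadjusted p under 0.05 in edgeR was found for 5 of the 13, against 23.2% of all rows. The log2 fold change was above 0 for 10 of them, with a median of 0.38. *Dll4*, the Notch ligand of arterial and sprouting endothelium and a known target of VEGF signaling, rose from 3.72, 4.37, 4.17 and 4.58 CPM in control to 8.96, 7.18, 8.41 and 8.38 CPM in NOX4-deficient libraries (0.96 on the log2 scale, standard error 0.15, edgeR adjusted p = 0.00299). The groups lay far apart relative to their spread. *Gja5*, the arterial connexin 40, had 0.74 (edgeR adjusted p = 0.0654), with no overlap between groups, and was called by DESeq2 (adjusted p = 0.0395) and pydeseq2 (0.041), and by edgeR without NOX4-deficient replicate 2 (0.047). In the nitric oxide pathway 0 of 10 tested genes were called by edgeR, with 3 at an unadjusted p under 0.05 and a median of 0.11. *Cav1*, the caveolin that binds and restrains the enzyme of *Nos3*, had 0.37 (edgeR adjusted p = 0.0425), under the minimum size of 0.5. *Nos2*, the inducible synthase, was at 1.85 ± 0.695 and 3.61 ± 0.461 CPM (0.96, edgeR adjusted p = 0.0565), and was called by DESeq2 (adjusted p = 0.0193), by pydeseq2 (0.0201) and, among other settings, by edgeR without the filter on low counts (0.0331).

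Genes that act upstream of *Vegfa* were mostly not called. Of 14 such genes, 1 was called, and it was lower, where 3.48% of all rows tested were called lower. An unadjusted p under 0.05 in edgeR was found for 6 of the 14, against 23.2% of all rows. Groups did not overlap for 5 of the 14, 3 lower and 2 higher, against 16.2% of all rows. The median of the log2 fold changes was -0.01. *Egln3*, which encodes the prolyl hydroxylase PHD3 and is itself induced by hypoxia-inducible factors, fell from 91.6, 101, 62.2 and 97.0 CPM in control to 29.6, 19.1, 32.5 and 35.1 CPM in NOX4-deficient libraries (-1.60 on the log2 scale, standard error 0.20, edgeR adjusted p = 0.000984). The highest NOX4-deficient library lay well below the lowest control library. *Arnt*, the shared partner of the hypoxia-inducible factors, had -0.46 (edgeR adjusted p = 0.0353), under the minimum size, and passed it without control replicate 1 (-0.51) or NOX4-deficient replicate 2 (-0.55), where it was called. *Hif1a* had -0.16 and *Epas1* -0.04. *Ppargc1a*, which encodes PGC-1alpha, had -1.39 (edgeR adjusted p = 0.0855), with a wide spread in control muscle, from 54.2 to 161 CPM, and was called by DESeq2 and pydeseq2.
Among 15 tested targets of hypoxia-inducible factors, 3 were called by edgeR, all lower, where 3.48% of all rows tested were called lower. An unadjusted p under 0.05 in edgeR was found for 7 of the 15, against 23.2% of all rows. The 3 called were *Egln3*, *Bnip3*, a mitophagy receptor (323 ± 81.2 to 177 ± 14.4 CPM, log2 fold change -0.87, edgeR adjusted p = 0.00619), and *Pfkfb4*, a regulator of glycolysis (-0.56, edgeR adjusted p = 0.0244). On GENCODE M21, 22.3% of the exon bases of *Bnip3* overlap another gene. The call of *Pfkfb4* was lost without control replicate 3 or 4 or NOX4-deficient replicate 1 or 3 (adjusted p from 0.0524 to 0.0812). The median of these targets was -0.06, with 8 below 0 and 7 above, and *Vegfa* was not called beside them. DESeq2 and pydeseq2 each called the same 3 and, in the other direction, *Pfkfb3*, another regulator of glycolysis. *Pfkfb3* was at 180.5 ± 83.9 CPM in control muscle and 497 ± 187 CPM in NOX4-deficient muscle (1.46, edgeR adjusted p = 0.0728, DESeq2 adjusted p = 0.0237, pydeseq2 adjusted p = 0.0247). Its groups nearly met, at 272.95 CPM in the highest control library and 273.11 CPM in the lowest NOX4-deficient library.

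The other angiogenic factors gave 3 genes called higher by edgeR of 14 tested and 0 lower, where 2.68% of all rows tested were called higher. An unadjusted p under 0.05 in edgeR was found for 9 of the 14, against 23.2% of all rows, and the median was 0.45. DESeq2 and pydeseq2 each called the same 3 and *Igf1*, a growth factor, which was lower (-1.05, edgeR adjusted p = 0.133, DESeq2 adjusted p = 0.0241, pydeseq2 adjusted p = 0.025). *Pdgfb*, by which endothelium recruits pericytes, rose from 17.8 ± 4.35 to 30.4 ± 3.81 CPM (log2 fold change 0.77, edgeR adjusted p = 0.0156). *Sema3a*, a guidance factor known to restrain vessel growth and to compete with VEGF-A for neuropilin 1, rose from 1.07 ± 0.330 to 3.62 ± 1.01 CPM (1.77, edgeR adjusted p = 0.00401). *Fgf2*, a growth factor for endothelium, rose from 6.66 ± 0.594 to 10.3 ± 1.32 CPM (0.62, edgeR adjusted p = 0.0221), a call lost without any 1 of 5 libraries, control replicates 1, 2 and 3 and NOX4-deficient replicates 2 and 3 (adjusted p from 0.0526 to 0.0587). *Nudt6* on the other strand shares exon bases with *Fgf2* and had a log2 fold change of 0.29. Of 13 angiogenesis inhibitors 1 was called by edgeR, and it was higher, where 2.68% of all rows tested were called higher. It was *Vash2* (0.729 ± 0.167 to 2.37 ± 1.08 CPM, 1.69, edgeR adjusted p = 0.0199), which is known to promote vessel growth, unlike its relative *Vash1*. The call of *Vash2* was lost without control replicate 3 (edgeR adjusted p = 0.0559) or NOX4-deficient replicate 2 (0.0509). *Thbs1*, the inhibitor thrombospondin 1, was at 27.8 ± 8.62 and 14.8 ± 6.08 CPM (-0.91, edgeR adjusted p = 0.104) and was called by DESeq2 (adjusted p = 0.0168), by pydeseq2 (0.0176) and by edgeR without NOX4-deficient replicate 2 (0.0373).

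**Figure D5:**
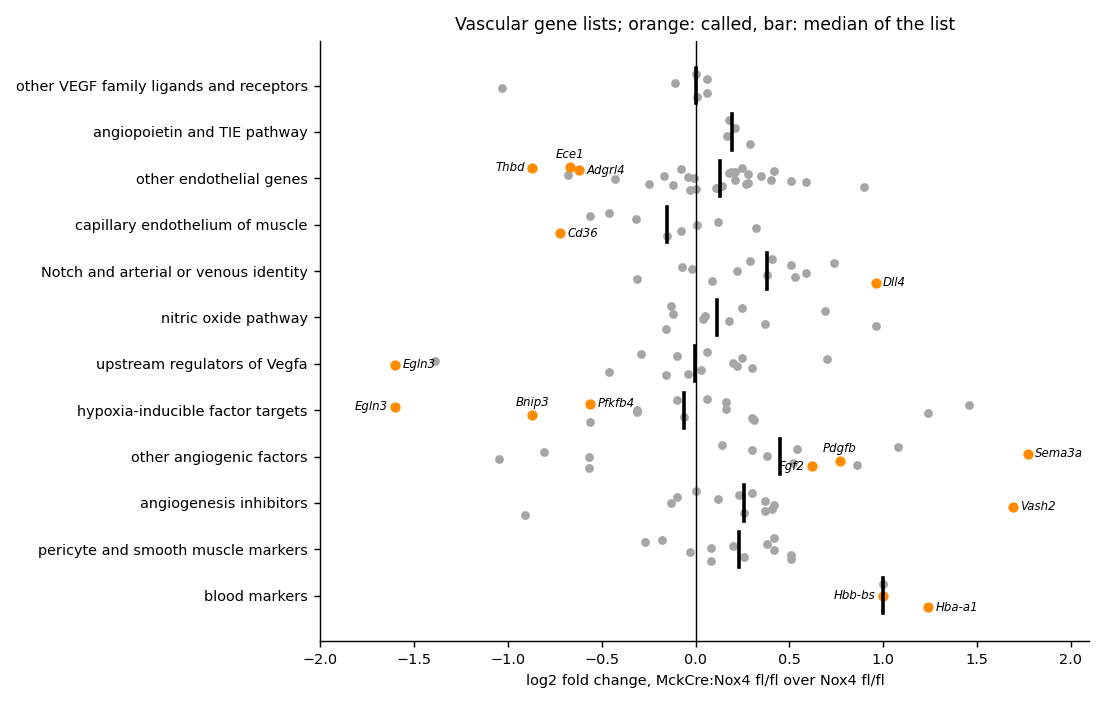
Log2 fold change (NOX4-deficient over control) of each tested gene in 12 lists, with called genes in orange and named, and a bar at the median of each list. The medians lie between -0.15 and 0.45 apart from the blood markers at 1.00, and called genes stand on both sides of 0.

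Cells next to the endothelium were read through their markers. Of 12 pericyte and smooth muscle markers 0 were called by edgeR (5 at an unadjusted p under 0.05) and 2 by DESeq2 and by pydeseq2 (*Cspg4* and *Kcnj8*), with a median log2 fold change of 0.23 and a summed level of 731 to 845 CPM in control and 756 to 995 CPM in NOX4-deficient libraries, and *Rgs5*, their most abundant gene, had 0.26 (edgeR adjusted p = 0.211). *Mcam*, shared by pericytes and endothelium, had 0.42 (edgeR adjusted p = 0.0305), under the minimum size. Of 6 lymphatic markers 0 were called by edgeR (1 at an unadjusted p under 0.05) and 1 by DESeq2 and by pydeseq2, *Lyve1*, which had -1.32 (edgeR adjusted p = 0.0665), at a median of -0.18. For 9 tested genes of venous and large vessel endothelium, chosen after the values were seen because *Vwf* is higher in such vessels than in capillaries, 0 were called by edgeR, DESeq2 or pydeseq2 (3 at an unadjusted p under 0.05), at a median of 0.14, with a summed level of 85.0 to 110.0 CPM in control and 84.7 to 112 CPM in NOX4-deficient libraries. The smallest p among them was that of *Nr2f2*, a transcription factor of veins, which had 0.29 (edgeR adjusted p = 0.148).
Leukocyte markers had 0 of 11 called by edgeR, DESeq2 or pydeseq2 (2 at an unadjusted p under 0.05), at a median of -0.44, with sums of 40.2 to 106 CPM in control and 25.2 to 58.8 CPM in NOX4-deficient libraries, and *Lyz2* had -0.69 (edgeR adjusted p = 0.302). Of the fibroblast and tendon markers 1 of 11 was called, *Pi16*, which was lower (-0.88, edgeR adjusted p = 0.0305). Over all rows tested 3.48% were called lower. *Pi16* was not called without any 1 of 6 libraries, all but control replicates 3 and 4 (edgeR adjusted p from 0.0563 to 0.084). The most abundant of these markers, *Dcn*, had -0.32. None of the adipocyte, slow fiber, fast fiber, muscle fiber and satellite cell lists held a called gene in the edgeR fit, at medians of 0.32, 0.66, 0.15, 0.06 and 0.15, and the defining markers of muscle fibers were abundant in all libraries. At an unadjusted p under 0.05 the satellite cell list held 2 genes and the other 4 lists 0, and DESeq2 and pydeseq2 each called *Chrdl2* of the satellite cell list. The part of any of these cells in the results was not tested.

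Over the 8 libraries, the genes whose log2 CPM ran most like that of *Vegfa* were *Tmem106b* (Pearson r 0.96, Spearman rho 0.90), *Tek* (0.96 and 0.88), *Smad3* (0.96 and 0.81), *Twsg1* (0.95 and 0.74) and *Elf1* (0.95 and 0.93). *Tek* was thus among the 5 nearest of all 12725 rows tested. Within genotypes, the mean deviation of the 8 endothelial genes ran most like that of *Slc28a2* (Pearson r 0.98), a nucleoside carrier that was called higher itself (log2 fold change 0.59, edgeR adjusted p = 0.0193, or 0.0521 without control replicate 3), *Rassf9* (0.96), *Eri1* (0.95), *Slc25a22* (0.95) and *Rad9a* (0.92). These are the highest values among many genes over 8 libraries that share depth and scaling, and are a description.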

How the data were processed

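Poly(A) RNA from gastrocnemius muscle of 4 control and 4 NOX4-deficient mice was sequenced by the authors as unstranded paired-end libraries, and reads went through nf-core's rnaseq pipeline. The submitters' processing notes name STAR and GRCm39, and the annotation and counter settings are not given in the sources used here. The authors deposited raw counts per gene, without normalization, 1 column per library. Each of the 8 columns carries its sample's name, and 412 rows repeat an earlier gene name.

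Counts were analysed in R 4.3.3 with edgeR 4.0.16 (TMM, filterByExpr, estimateDisp, robust glmQLFit, glmQLFTest), with genotype as the only term, on 16350548 to 19804661 counts per library. The common biological coefficient of variation was 0.174. DESeq2 1.42.0 and pydeseq2 0.5.4 (the study's tool in another version), other scalings, filters and thresholds, and each library left out were alternatives. Ratios were compared with exact permutation tests (scipy 1.17.1). Chi-square per degree of freedom between replicates ran from 12.6 to 52.1 over 12 pairs, so that no library was a copy of another. Nothing in the labels pairs the mice.

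The members, the lists and the tests were chosen with earlier results of these data known. Named genes are the 10 members, *Nox4*, up to 5 called genes of each vascular list or, where fewer than 2 were called, the 2 with the smallest p, called genes and the most abundant gene of the other marker lists, and the 5 genes most like *Vegfa* and the endothelial mean. Genes outside this rule (such as *Emcn*, *Esam*, *Erg*, *S1pr1*, *Eng*, *Robo4*, *Icam2*, *Gpihbp1*, *Aqp1*, *Lpl*, *Aqp7*, *Meox2*, *Hif1a*, *Epas1*, *Ppargc1a*, *Sox7*, *Cyyr1*, *Alas2*, *Mcam*, *Cspg4*, *Kcnj8*, *Lyve1*, *Nr2f2*, *Chrdl2*, *Pfkfb3*, *Igf1* and the platelet genes) were named after their values were seen. Exon lengths and overlaps come from GENCODE M21 (GRCm38), by gene name. The result of 1 marker list is not reported here. p-values measure the spread between the mice of each group.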

Additional observations from a re-analysis of the deposited data

Results flagged for a closer look

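In each group of 4 libraries, a library was noted when its distance from the nearest other library, as a share of the whole spread of the group, passed the 95% critical value of Dixon's test. Among 114 groups examined 9 passed, where chance gives about 1 in 20 groups, or 5.7. Among the 10 genes described, control replicate 2 was high for *Vegfa* (189 CPM) and for *Tek* (27.7 CPM), and NOX4-deficient replicate 2 was low for *Pecam1* (57.0 CPM). *Nox4* was low in NOX4-deficient replicate 1 (1.74 CPM). The others were *Tie1* in NOX4-deficient replicate 2 (19.4 CPM, low), *Vash2* in control replicate 3 (0.482 CPM, low), *Cfd* in control replicate 1 (41.2 CPM, high), *Pax7* in NOX4-deficient replicate 1 (2.11 CPM, low) and *Slc25a22* in NOX4-deficient replicate 3 (14.0 CPM, high).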

How the results depend on the processing

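*Vwf* stayed called in the edgeR, DESeq2 and pydeseq2 fits and with each library left out (log2 fold change 0.61 to 0.82, adjusted p 0.00037 to 0.0401), and the number of the 10 genes called was 1 each time a library was left out. At an adjusted p under 0.01 it was 0, and 252 genes were called over all rows in place of 784. With 1 library left out, 499 to 712 genes were called, the fewest (499) without control replicate 4. *Vegfa* ran from -0.30 to -0.13 and *Vegfb* from 0.01 to 0.22 with 1 library left out, never called. The *Vegfa* to *Kdr* difference ran from -0.55 to -0.35, with an exact permutation p of 0.0571, the smallest that 3 libraries against 4 allow. The *Vegfa* to *Flt1* difference ran from -0.33 to -0.02 and that of *Vegfb* to *Flt1* from -0.061 to 0.39, turning to -0.061 without control replicate 4 and to -0.013 without NOX4-deficient replicate 1. With 1 library left out the sign also turned for *Flt1* (from -0.24 to 0.053, above 0 at 0.053 without control replicate 4 and 0.0097 without NOX4-deficient replicate 1), *Flt4* (from -0.24 to 0.038, above 0 without NOX4-deficient replicate 1), *Cfd* (from -0.96 to 0.15, above 0 without control replicate 1), *Pmp22* (from -0.16 to 0.24, below 0 without NOX4-deficient replicate 2) and *Rassf9* (from -0.28 to 0.17, above 0 without control replicate 2), none of them called, and the cause was not tested.

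The labels give both genotypes the same replicate numbers. Same-numbered libraries had correlations of 0.05 to 0.25, and 2 of 8 correlated best with their own number, so the numbers were not taken as pairs. With the replicate block 933 genes were called and 1 of the 10 genes, and the *Vegfa* to *Kdr* difference was -0.46 with an exact permutation p of 0.125, the smallest that 4 pairs allow. The block also brought *Nos2* (edgeR adjusted p = 0.0355), *Thbs1* (0.0226) and the leukocyte marker *Lyz2* (-0.72, edgeR adjusted p = 0.0336) past the thresholds. The term for odd and even numbers did so for *Nos2* (edgeR adjusted p = 0.0359). Neither changed another call among the genes named by the rule given above. The 10 genes had from 97 counts in a library, for *Nos3*, to 3669, for *Vegfa*.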
